A study of Mus musculus with 6 samples.

Results

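The genes described here are Txnip, its relatives among the alpha-arrestins, the thioredoxin genes and the Mondo transcription factors, in brain tissue of wild-type and Gb5-deficient mice. The members are Txnip, Arrdc1, Arrdc2, Arrdc3, Arrdc4, Txn1, Txn2, Txnrd1, Mlxip and Mlxipl, and every probe annotated to exactly 1 of these symbols was taken. This gave 19 of the 45037 probes besides controls, for 10 of the 18193 genes with a probe of their own; no probe was shared between a member and another gene. Txnip was picked for its higher value in the Gb5-deficient arrays, so its difference between genotypes is given as a description and without a test. The other members were picked by family, with earlier results of these data known, and their differences were tested.

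Thioredoxins are small proteins that reduce disulfide bonds in other proteins, and thioredoxin reductases recharge them with electrons from NADPH. Txnip has the arrestin fold, binds reduced thioredoxin and blocks it, and like its close relative Arrdc4 it lowers glucose uptake by cells. When glucose enters cells, the paired transcription factors MondoA (Mlxip) or ChREBP (Mlxipl) with Mlx bind carbohydrate response elements, and Txnip and Arrdc4 are among their best-known targets.

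The series holds 6 single-colour Affymetrix arrays, 3 from wild-type mice and 3 from mice described as Gb5-deficient, and the title gives the tissue as cerebellum. Gb5 is the G protein beta subunit encoded by Gnb5. The labels give no strain, age or allele for either group, and describe both as littermate cohorts matched for age and sex with free access to food. The design text calls the 3 mice of a genotype biological replicates, and each array was made from 6 µg of total RNA. Cerebellar markers were bright: Pcp2 of Purkinje cells lay at the 98.6th percentile of all probe means and Gabra6 of granule cells at the 98.4th.

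Gnb5 signal lay between 8.51 and 8.80 (log2) in wild type and between 2.96 and 3.65 in knockout, as the labels state. Array medians ran from 6.48 to 6.57. Knockout array 6 stood apart: Eif2s3y, a Y-linked gene, read 11.80 there and 3.19 to 3.43 on the other arrays, and Xist read 8.22 against 11.17 to 11.64. For Gapdh, the signal of the 3′ control probe minus that of the 5′ one, a gap that grows as RNA degrades, was 1.58 on that array, 1.07 and 1.14 on the other knockout arrays and 1.03 to 1.04 in wild type. The labels describe the cohorts as matched for sex, and these readings of array 6 go against that description. Differences of members and of named pathway genes (representing probes) that moved by over 1.5 times without knockout array 6 are therefore given with and without it.

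The promoters of Txnip and Arrdc4 are shown because these genes share a known regulator. RefSeq sequences (assembly GRCm38.p6) held 15 windows for the 10 member genes, each with the 250 bases before an annotated start. The bases in capitals mark 4 sets of letters, searched on both strands: the carbohydrate response element in a relaxed form, CACGNNNNNNNCACG, the E-box CACGTG, the CCAAT box of NF-Y, and GTAAACA, the core of FoxO sites. No marked stretch overlaps another in these windows. Txnip lies on the plus strand and its window is chr3:96557707-96557956; Arrdc4 lies on the minus strand and its window is chr7:68749239-68749488.
Txnip: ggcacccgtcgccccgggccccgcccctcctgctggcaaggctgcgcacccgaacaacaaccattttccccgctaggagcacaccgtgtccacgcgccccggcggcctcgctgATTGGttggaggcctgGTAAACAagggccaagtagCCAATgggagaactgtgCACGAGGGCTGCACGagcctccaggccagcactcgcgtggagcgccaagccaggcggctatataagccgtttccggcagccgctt
Arrdc4: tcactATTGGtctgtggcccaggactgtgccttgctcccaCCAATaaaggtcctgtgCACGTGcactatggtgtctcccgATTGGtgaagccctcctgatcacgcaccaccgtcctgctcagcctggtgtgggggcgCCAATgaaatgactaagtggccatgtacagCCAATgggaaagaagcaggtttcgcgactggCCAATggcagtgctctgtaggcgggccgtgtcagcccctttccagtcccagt

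The relaxed element occurred in the Txnip window and in that of Arrdc2, and in 0.511% of all 32851 promoter windows of the same length. In Txnip it starts 85 bases before the annotated start. The strict form, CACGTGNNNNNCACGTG, occurred in none of the 32851 windows. The element is shown for both genes with the bases that complete it, the CACG cores in capitals, at chr3:96557872-96557888 for Txnip and at chr8:70839847-70839863, minus strand, for Arrdc2.
Txnip: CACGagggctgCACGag
Arrdc2: CACGcccttcaCACGct

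The Arrdc4 window held the E-box, found in 6.02% of all windows, and the CCAAT box at 6 places. At least 1 CCAAT box occurred in 33.9% of windows, and 6 or more in 19 windows, or 0.0578%. The Txnip window held 2 CCAAT boxes and the FoxO core, which occurred in 3.17% of windows. Among the other members the E-box was also in 1 of 2 windows of Mlxipl, and neither Arrdc1 nor Txn1 held any of these letters. A match describes the sequence; binding was not measured.

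**Figure D1:**
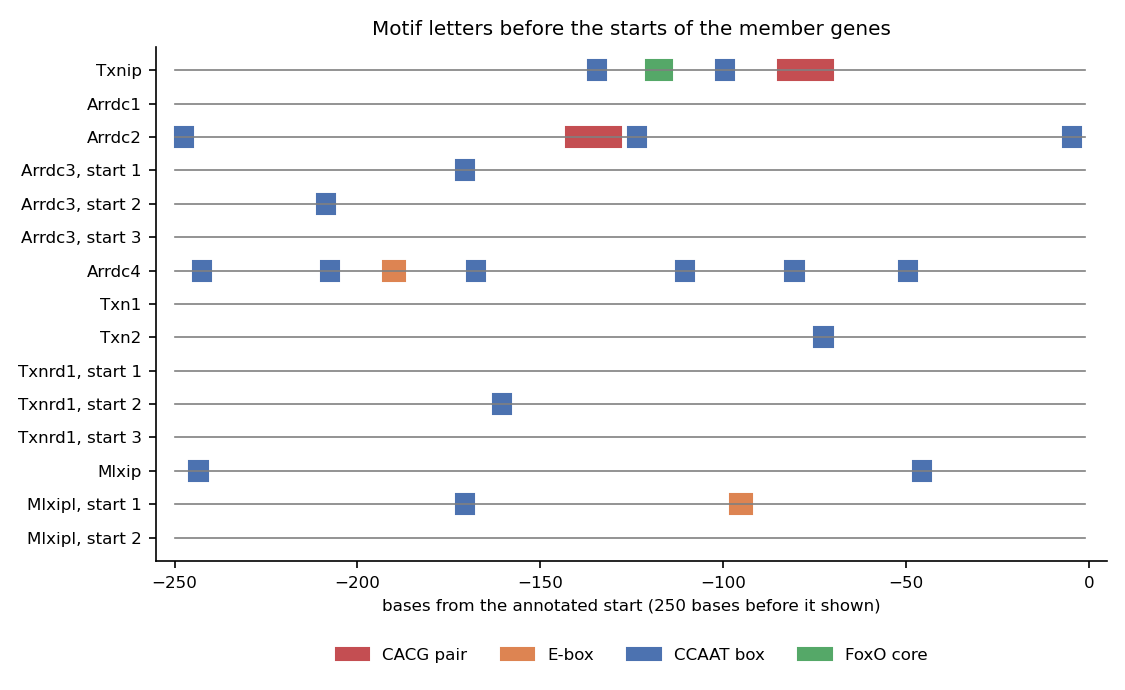
Positions of the searched letters in the 250 bases before each annotated start of the member genes; the horizontal axis is the distance from the start in bases, and boxes are coloured by motif. Arrdc4 carries 6 CCAAT boxes and Txnip the relaxed element starting 85 bases before its start.

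Txnip signal was higher on all 3 knockout arrays with both of its probes. Probe 1415996_at gave 9.33, 9.16 and 9.49 (log2) on the wild-type arrays and 10.20, 9.99 and 9.97 on the knockout arrays. The groups did not overlap: the lowest knockout array lay 0.48 above the highest wild-type array. The means were 9.33 ± 0.17 (SD, n = 3) and 10.05 ± 0.12 (SD, n = 3), a difference of 0.72 or 1.65-fold, and Txnip ranked 28th in size among the genes with higher values. Without knockout array 6 the difference was 0.77, and it ran from 0.64 to 0.81 when each array was left out in turn.

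The second Txnip probe, 1415997_at, is dimmer, at the 36.6th percentile of all probe means. It gave 5.17, 4.93 and 5.19 on the wild-type arrays and 5.34, 5.80 and 5.24 on the knockout arrays, a difference of 0.37. The gap between the groups was only 0.05, and knockout array 5 stood above the other arrays, so the difference was 0.20 without that array. The 2 probes thus ordered the knockout arrays differently, array 4 being highest with the first and array 5 with the second. In bulk tissue, more cells that express a gene and more RNA per cell cannot be told apart.

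Arrdc4, the alpha-arrestin that shares glucose control with Txnip, gave different values with its 2 probes. The probe with the higher signal, 1426818_at, stands for the gene in the test over genes. It gave 10.35, 9.83 and 10.45 on the wild-type arrays and 10.38, 10.75 and 10.16 on the knockout arrays. The groups overlapped, with knockout array 6 below 2 of the 3 wild-type arrays. The difference was 0.22 (95% interval over genes -0.22 to 0.66), and it did not pass (limma adjusted p = 0.703 over 14067 genes). It moved with single arrays: it was 0.03 without wild-type array 2 and 0.060 without knockout array 5, but 0.34 without wild-type array 3 and 0.36 without knockout array 6.

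The other Arrdc4 probe, 1424759_at, gave 5.98, 6.20 and 6.22 on the wild-type arrays and 6.96, 7.28 and 7.60 on the knockout arrays. The groups did not overlap and stood 0.74 apart. The means were 6.14 ± 0.13 and 7.28 ± 0.32 (SD, n = 3 each), a difference of 1.15 (SE 0.17; 95% interval 0.75 to 1.54) or 2.21-fold. It had the 26th largest positive difference among 45037 probes, but the limma adjusted p over all probes was 0.198 and it did not pass. Without knockout array 6, the highest for this probe, the difference was 0.99, and it ran from 0.99 to 1.31 over the arrays left out. The difference between genotypes was larger by 0.93 for this probe than for 1426818_at. Its signal minus that of 1426818_at was -4.36, -3.63 and -4.22 on the wild-type arrays. On the knockout arrays this gap was -3.41, -3.47 and -2.55, without overlap but close at the edge. The exact permutation p was 0.1, the smallest that 3 against 3 arrays can give. The probes' positions in the gene were not used here, so which transcripts each reads was not tested.

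**Figure D2:**
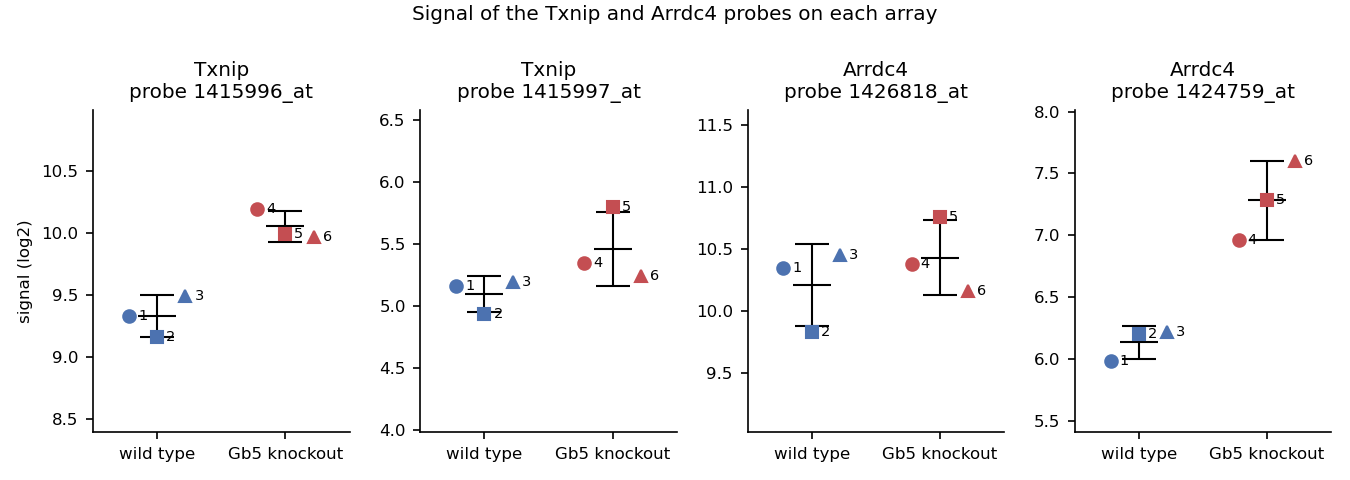
Signal (log2) of the 2 Txnip and 2 Arrdc4 probes on each array; points are numbered by array, and bars give the mean and SD of 3 arrays. The vertical axes differ in level but span the same range. The groups do not overlap for both Txnip probes and for Arrdc4 probe 1424759_at, and do overlap for Arrdc4 probe 1426818_at.

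Arrdc1, an alpha-arrestin known for recruiting Nedd4 family ubiquitin ligases and for budding of vesicles at the plasma membrane, had higher knockout values with all 3 probes. Its representing probe, 1444508_s_at, gave 6.74, 7.12 and 6.99 on the wild-type arrays and 7.14, 7.32 and 7.73 on the knockout arrays. The groups did not overlap, but the gap was 0.03. The difference was 0.45 (95% interval over genes 0.06 to 0.84) and did not pass (limma adjusted p = 0.573 over genes). Without knockout array 6, the highest array, it was 0.28.

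Arrdc1 probe 1424578_at followed the same order, with 6.82, 7.13 and 6.96 on the wild-type arrays and 7.14, 7.19 and 7.57 on the knockout arrays, a difference of 0.33. Without knockout array 6 that difference was 0.20. The third probe, 1458613_at, was below the filter on signal, at the 26.7th percentile. It gave 4.02, 4.34 and 4.00 on the wild-type arrays and 4.50, 4.87 and 4.84 on the knockout arrays, with the groups 0.16 apart. Its difference of 0.62 (95% interval 0.29 to 0.95) did not pass over all probes (limma adjusted p = 0.447), and was 0.57 without knockout array 6. On knockout array 6 the degradation measure of Gapdh was also highest. It was higher on every knockout array than on any wild-type array, so leaving out array 6 does not remove that separation. The part of RNA quality in the differences of Txnip, Arrdc1, Arrdc4 and the other genes was not tested.

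Arrdc2 and Arrdc3, alpha-arrestins that also act as ubiquitin ligase adaptors for membrane receptors, were measured by 1 probe each. Arrdc2 gave 7.22, 7.35 and 7.27 on the wild-type arrays and 7.45, 7.35 and 7.68 on the knockout arrays. Knockout array 5 lay just within the wild-type range and the difference of 0.21 (95% interval over genes -0.06 to 0.48) did not pass (limma adjusted p = 0.612). Without knockout array 6 it was 0.12. Arrdc3, a regulator of beta-adrenergic receptor trafficking and energy expenditure, gave 11.48, 11.09 and 11.23 on the wild-type arrays and 11.29, 11.30 and 11.36 on the knockout arrays. The knockout arrays lay inside the wild-type range, with a difference of 0.05 (95% interval over genes -0.18 to 0.28; limma adjusted p = 0.865), which was 0.030 without knockout array 6.

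**Figure D3:**
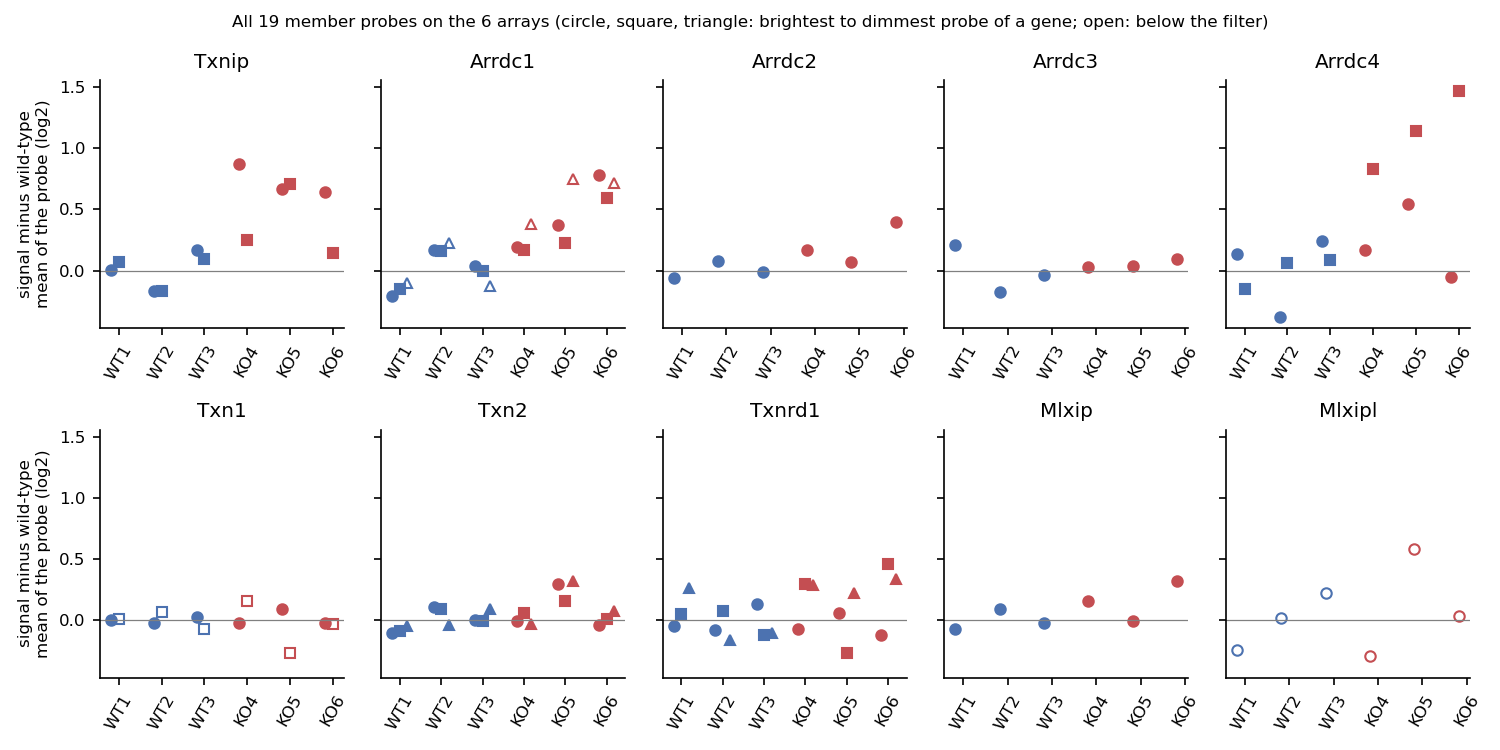
Signal of all 19 member probes on the 6 arrays, as the difference (log2) from the wild-type mean of the same probe; blue is wild type, red knockout, and symbols separate the probes of a gene. Txnip, Arrdc1 and 1 Arrdc4 probe lie above the wild-type arrays on all 3 knockout arrays, and the thioredoxin probes scatter around 0.

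The thioredoxins, the proteins Txnip binds, gave small differences that did not pass. Txn1, the cytosolic thioredoxin, gave 12.50, 12.47 and 12.52 on the wild-type arrays and 12.47, 12.58 and 12.47 on the knockout arrays with probe 1416119_at. Its difference of 0.01 had a 95% interval over genes of -0.11 to 0.14 (limma adjusted p = 0.935), and its sign turned when array medians were subtracted; without knockout array 6 it was 0.032. Its second probe, 1456734_at, was dim on every array, at the 7.54th percentile, with a difference of -0.05. Txn2, the mitochondrial thioredoxin, had differences of 0.08, 0.07 and 0.12 with its 3 probes, and the groups overlapped for each. The representing probe, 1455640_a_at, gave 10.84, 11.06 and 10.95 on the wild-type arrays and 10.94, 11.25 and 10.91 on the knockout arrays (95% interval over genes -0.16 to 0.33; limma adjusted p = 0.794), and its difference was 0.15 without knockout array 6.

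Txnrd1, the cytosolic thioredoxin reductase and a selenoprotein, gave 11.52, 11.49 and 11.70 on the wild-type arrays and 11.49, 11.62 and 11.44 on the knockout arrays with its representing probe 1421529_a_at. The difference was -0.05 (95% interval over genes -0.24 to 0.14; limma adjusted p = 0.849), and -0.0082 without knockout array 6. Its other probes, at the 38.8th and 31.1st percentiles, gave 0.16 and 0.28 with overlapping groups, and the first of these was 0.013 without knockout array 6.

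The Mondo factors, which switch on Txnip in response to glucose, did not pass either. Mlxip (MondoA) gave 9.85, 10.01 and 9.90 on the wild-type arrays and 10.08, 9.92 and 10.24 on the knockout arrays, with the highest signal on knockout array 6. The difference was 0.16 (95% interval over genes -0.09 to 0.40; limma adjusted p = 0.645), and 0.08 without that array. Mlxipl (ChREBP) had 1 probe, below the filter at the 24.7th percentile, and was not in the test over genes. It gave 3.98, 4.24 and 4.45 on the wild-type arrays and 3.93, 4.80 and 4.26 on the knockout arrays, with overlapping groups and a difference of 0.11 (95% interval over probes -0.38 to 0.59).

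**Figure D4:**
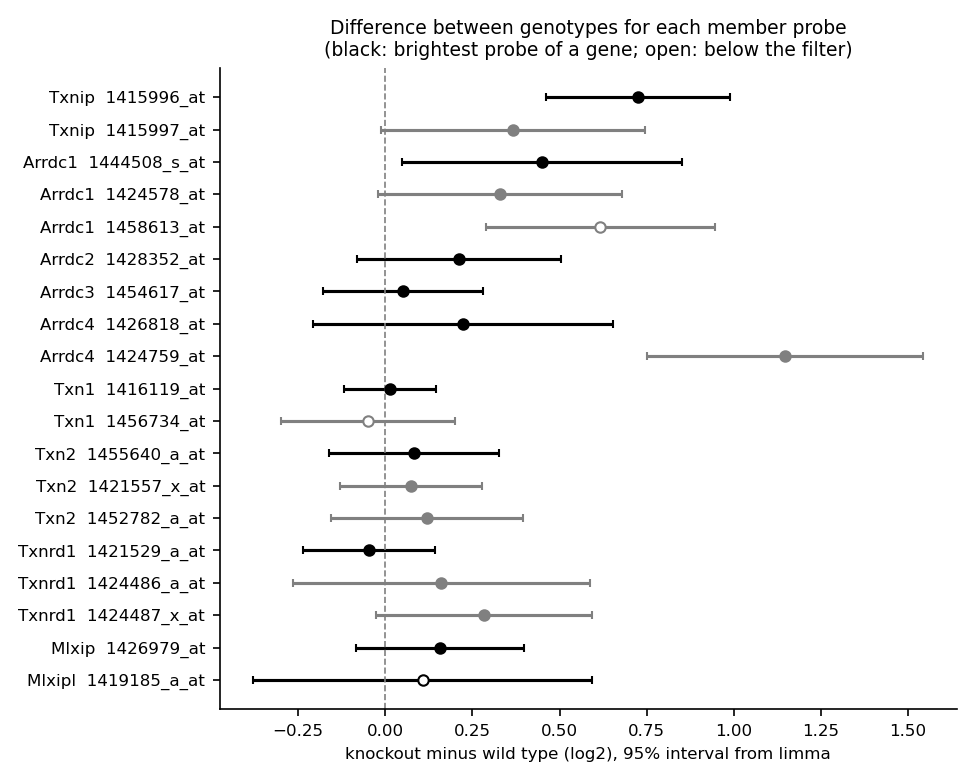
Knockout minus wild type (log2) for each member probe with its 95% interval from the limma fit over all probes; black marks the probe that represents a gene, grey its other probes, and open circles probes below the filter. Arrdc4 probe 1424759_at has the largest difference, 1.15, and the Txn1 probe 1416119_at the narrowest interval. Txnip was picked for its value, so its interval is a description.

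Over the family, no tested member passed, Txnip being left out as picked for its value. Of the 8 members besides Txnip that were tested over genes, 0 passed (limma, Benjamini-Hochberg, threshold 0.05). An unadjusted p under 0.05 was seen for 1, Arrdc1. Of all 14067 genes 0.0355% passed and 8.57% had such a p. The Arrdc1 probe tested was the brightest only through the knockout arrays, its wild-type mean being 6.95 against 6.97 for probe 1424578_at. For probe 1424578_at the unadjusted limma p in the fit over all probes was 0.062. Of the 17 probes of the 8 members and Mlxipl, 0 passed over all probes and 3 had an unadjusted p under 0.05, against 0.0222% and 7.61% of all probes. Knockout and wild type did not overlap for 4 of these 17 probes, all 3 of Arrdc1 and 1 of Arrdc4, with knockout higher each time; 8.25% of all probes separated in that direction. Probes of 1 gene share its RNA and are not independent. The median difference over these 8 members, Txnip left out, was 0.12, against 0.03 over all genes tested; 7 of the 8 had a higher knockout mean, as did 56.7% of all genes.

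Within genotypes, the members' deviations ran both with and against those of Txnip. After genotype means were subtracted, Pearson's r with Txnip probe 1415996_at over the 6 arrays was 0.53 for Arrdc4 probe 1426818_at and -0.48 for Arrdc4 probe 1424759_at. It was -0.55, -0.57 and -0.93 for the 3 Arrdc1 probes, and for the representing probes of the others 0.51 for Txnrd1, -0.39 for Txn2, -0.37 for Arrdc2, -0.30 for Mlxip, 0.23 for Arrdc3 and 0.05 for Txn1. The second Txnip probe gave 0.18. Of the tested genes 11.3% had a higher r than the representing probe of Arrdc4. These values describe 6 arrays that share their normalization. The genes most like Txnip by this measure were Map7 (0.997), Cd70 (0.993), Mcmbp (0.987), Isl2 (0.987) and Pik3r5 (0.985). They were picked as the highest r of all genes tested over only 6 arrays, so these r values are a description. The differences of these genes between genotypes ran from -0.07 for Mcmbp to 0.22 for Pik3r5.

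Genes around the members were described by 10 lists. Of 151 listed genes 135 were measured, 0 passed (limma adjusted p over genes) and 13, or 9.63%, had an unadjusted p under 0.05, against 8.57% of all genes. The groups did not overlap for 16 with knockout higher (11.9%, against 10.1% of all genes) and for 6 with knockout lower (4.44%, against 4.82%). Their median difference was 0.01. The genes named for each list below are those with its smallest unadjusted p, and none passed.

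Other targets of the Mondo factors had higher and lower values in near-equal numbers. Of 21 measured, 11 had higher and 10 lower knockout means, with a median of 0.01; none had an unadjusted p under 0.05. Khk, the fructose kinase ketohexokinase, had a difference of 0.28, or 0.19 without knockout array 6, and Tkt, a transketolase of the pentose phosphate pathway, one of 0.16. In the network of Mlx and Max partners (11 measured, 6 higher, median 0.04), Mycl had 0.33, with -0.03 and 0.06 for its dimmer probes, and the repressor Mnt 0.17.

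Glucose transport and glycolysis genes (20 measured, 12 higher, median 0.01) included Slc2a4, the insulin-responsive glucose transporter GLUT4. It gave 5.72, 5.75 and 5.78 on the wild-type arrays and 6.15, 6.42 and 6.51 on the knockout arrays. The groups did not overlap, and the difference of 0.61 (95% interval 0.32 to 0.89) did not pass (limma adjusted p = 0.306). A second Slc2a4 probe, dim at the 15.3rd percentile, had 0.32. Slc2a8, an intracellular glucose transporter, had 0.34, and 0.20 without knockout array 6.

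Of the glutathione and Nrf2 target genes (16 measured, 7 higher, median -0.02), Me1, the cytosolic malic enzyme that makes NADPH, gave 9.55, 9.68 and 9.72 on the wild-type arrays and 10.57, 10.16 and 10.10 on the knockout arrays. Its groups did not overlap, with a difference of 0.62 (limma adjusted p = 0.355), and its other probe had 0.10. Glrx2, the mitochondrial glutaredoxin, had a difference of -0.33 (limma adjusted p = 0.369), with -0.00055 and 0.0070 for its other probes. Peroxiredoxins and sulfiredoxin (4 measured, 3 higher, median 0.10) gave 0.16 for Prdx4 and -0.07 for Prdx2, whose other probe, at the 89.2nd percentile, had 0.10. Other thioredoxin reductases and thioredoxin fold genes (17 measured, 8 higher, median -0.03) gave 0.45 for the reductase Txnrd3 and 0.18 for Txndc11, with -0.21 for another Txndc11 probe.

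Other genes of the arrestin fold (7 measured, 6 higher, median 0.06) gave 0.32 for the beta-arrestin Arrb1 and 0.08 for the retromer-like subunit Vps26c, which had 0.036 without knockout array 6. Nedd4 family ligases and their adaptors (11 measured, 4 higher, median -0.05) gave 0.23 for Nedd4 and -0.27 for Itch, the ligase that marks Txnip for degradation. Nedd4 gave 12.53, 12.42 and 12.53 on the wild-type arrays and 12.61, 12.72 and 12.84 on the knockout arrays, without overlap (limma adjusted p = 0.524). Itch read 11.01, 10.65 and 10.84 against 10.73, 10.46 and 10.50, with overlap (limma adjusted p = 0.574). Its other probes had -0.21, -0.27 and, at the 20.5th percentile, 0.07.

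Partners of Txnip in stress signalling (11 measured, 6 higher, median 0.02) gave 0.25 for the inflammasome adaptor Pycard, with -0.35 and -0.08 for its dimmer probes, and 0.18 for the signalosome subunit Cops5, whose other probe, at the 72.6th percentile, had -0.15. FoxO, glucocorticoid and fasting response genes (17 measured, 7 higher, median -0.02) gave 0.50 for the insulin receptor substrate Irs2 and 0.29 for the cell cycle inhibitor Cdkn1a. Irs2 gave 5.65, 5.74 and 5.84 on the wild-type arrays and 6.11, 6.27 and 6.36 on the knockout arrays, without overlap (limma adjusted p = 0.390).

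**Figure D5:**
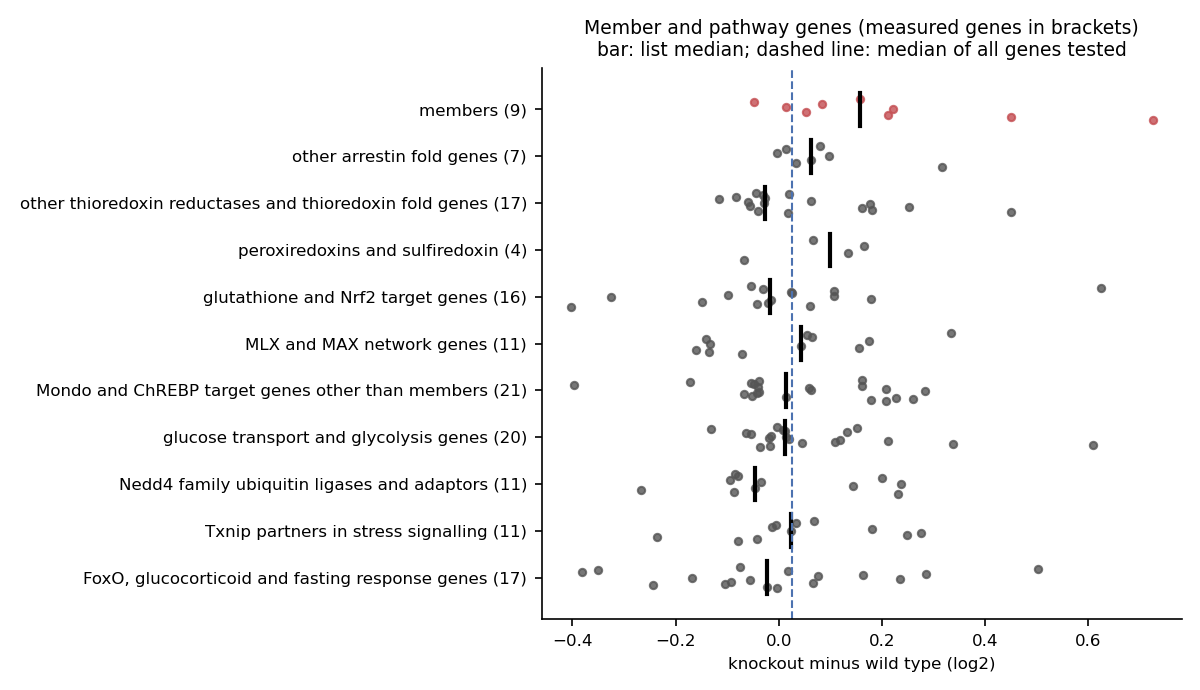
Knockout minus wild type (log2) for each measured gene of the member list (red) and of the 10 pathway lists (grey); black bars are list medians (Txnip counted among the members) and the dashed line is the median of all genes tested, 0.03. The medians of the 10 pathway lists lie between -0.05 and 0.10, with Slc2a4 and Me1 at the right.

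The summed signals of some cell type markers differed between the groups beside Txnip. The summed linear signal of the 6 measured blood markers was 4276 to 4713 in wild type and 2753 to 3420 in knockout, with 3 of the 6 higher and 3 lower. That of 7 endothelial and pericyte markers was 8640 to 9076 in wild type and 8029 to 8463 in knockout, with 3 higher and 4 lower. Oligodendrocyte markers (6 measured, 2 higher) summed to 38961 to 39294 and 36675 to 38045, and meningeal and fibroblast markers (6 measured, 1 higher) to 11136 to 11506 and 9648 to 10909. These 4 sums were lower on every knockout array than on any wild-type array, while Txnip was higher. A linear sum is weighted to its brightest markers, and the markers of each of these lists moved both ways. Of blood and of oligodendrocyte markers, 3 of 6 each were lower on every knockout array. So were 2 of 7 endothelial and pericyte markers and 2 of 6 meningeal and fibroblast markers. No marker of these 4 lists was higher on every knockout array. Of single genes tested, 4.82% were lower on every knockout array and 10.1% were higher. Among the pathway lists, no sum was lower on every knockout array. The sum of the other arrestin fold genes was higher on every one, 6436 to 6591 in wild type and 6711 to 7201 in knockout. The part of cell composition in the Txnip difference was not tested. The sums of 5 other marker lists overlapped between the groups. Their median differences were -0.03 for Purkinje cells, -0.04 for granule cells, -0.05 for Bergmann glia and astrocytes, 0.12 for microglia and -0.21 for choroid plexus. The choroid plexus sum varied widely, from 11158 to 16346 in wild type and from 3779 to 14976 in knockout. No marker of these lists passed over all genes.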

How the data were processed

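The deposited table gives a log2 signal for each probe on each array, which the authors made with RMA and Partek, per the submitters' processing notes, versions not given. RMA quantile-normalizes arrays, so a global change would not be seen. No detection calls were used here, so no probe could be called absent. Columns carry the sample names, and titles give the genotype. Of 45101 probes 64 are controls, and 34945 carry 1 gene in the platform annotation. Among a gene's probes the one with the highest mean stood for it; genes above the 30th percentile of probe means (4.70, log2) were kept, 14067 of 18193. Expression was fitted with limma 3.58.1 (R 4.3.3) (knockout minus wild type, eBayes with an intensity trend), two-sided, Benjamini-Hochberg, threshold 0.05. A second fit took all 45037 probes unfiltered; intervals given without "over genes" for member probes come from it. The fit was tested on simulated data. The members and lists were chosen with earlier results of these data known. A further marker list is not reported here. Named pathway genes are the 2 of each list with the smallest unadjusted p. The labels give biological replicates; precision is limited by 3 arrays a group. Alternatives were other filters, normalizations, probe rules, variance models, thresholds and each array left out.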

Additional observations from a re-analysis of the deposited data

How the results depend on the processing

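Txnip was picked for its value and is not counted among the members that follow. No member gene, member probe or pathway gene passed at 0.05 with a second quantile normalization or subtracted array medians. None passed with other variance models, array weights or any array left out. Member and pathway genes, but not probes, were also run with other filters, the mean of a gene's probes and a threshold of 0.1, and none passed. Without knockout array 4, Arrdc4 probe 1424759_at had a limma adjusted p of 0.0767. Txnip's difference was 0.55 with the mean of its probes and 0.64 to 0.81 over the arrays left out. Arrdc4's difference over genes was 0.22 in the main fit and 0.053 with array weights. With the mean of its probes it was 0.68 (limma adjusted p = 0.204). The members' median difference, Txnip included, was 0.16, and 0.086 with array weights and 0.061 to 0.16 over the arrays left out, lowest without knockout array 5. Members with differences near 0 changed sign. Txn1 was -0.012 with array medians subtracted, -0.0088 with array weights (-0.0019 in the fit over probes), -0.018 with the mean of its probes and -0.022 to 0.032 over the arrays left out; its dim probe ran from -0.15 to 0.059. Txnrd1 was 0.13 with the mean of its probes and -0.099 to 0.017 over the arrays left out. Arrdc3 ran from -0.037 to 0.16, Txn2 from -0.023 to 0.15 and Mlxipl from -0.13 to 0.31 over the arrays left out, and Mlxipl was -0.0017 with array weights. With the mean of a gene's probes Prdx2 was 0.017, Pycard -0.060 and Txndc11 -0.017. No paired analysis was possible because the arrays are numbered 1 to 6 with no number shared between genotypes. The highest-mean rule decides which Arrdc4 value and which Arrdc1 value enter the test over genes.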
